A study of Mus musculus with 2 samples.

Results

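Expression of 10 genes of canonical Wnt signalling was followed across the Mesp1 lineage of the mouse embryo. The genes were the ligands Wnt2, Wnt4 and Wnt6, the R-spondins Rspo1 and Rspo2, the secreted inhibitors Dkk1, Sfrp1 and Sfrp5, and the nuclear effector Lef1 and the feedback target Axin2. They were chosen by name, each matched 1 of the 27998 genes in the count matrices by its symbol, and a wider list of 73 further Wnt pathway genes was read beside them. The genes and the list were chosen with earlier results of these data known.

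The cells came from the pharyngeal apparatus and heart of Swiss Webster embryos at embryonic day 9.5 and were profiled by droplet-based counting of the 3′ ends of transcripts. Both groups carried Mesp1Cre, which recombines in early mesoderm, together with the Rosa26-GFPflox/+ reporter, and live GFP-positive cells were sorted, so endoderm, ectoderm and most neural crest lie outside the sort. The Ctrl embryos carried nothing further and the cKO embryos also carried Tbx1flox/flox, with the purpose of asking how loss of the T-box factor Tbx1 in this lineage alters pharyngeal and cardiac mesoderm. Each group was 1 library from pooled embryos, and the cKO embryos were at a slightly later somite stage. With 1 library per group there is no replicate and no test, and the comparisons below are of these 2 libraries alone. Stage and genotype cannot be told apart. The 95% intervals cover counting error only.

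In canonical signalling a secreted Wnt ligand binds Frizzled and Lrp5 or Lrp6 at the cell surface, β-catenin escapes the Axin-containing destruction complex, and it then acts in the nucleus with Tcf/Lef factors. R-spondins amplify the signal by binding Lgr receptors and clearing the ubiquitin ligases Znrf3 and Rnf43 from the surface, whereas secreted Frizzled-related proteins bind Wnt ligands and Dkk1 blocks the Lrp co-receptors. In the pharyngeal and cardiac mesoderm this pathway is known for its part in the growth of heart progenitors and in the muscle lineages of the head.

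The deposited matrices held 7418 and 10281 cells in the libraries labelled Ctrl and cKO. After filters, 6591 and 8969 cells remained, with medians of 16854 and 14192 unique molecular identifiers (UMIs), and 12 of the kept barcodes occurred in both libraries. Tbx1, read first as a check, was not lower in the library labelled cKO: it stood at 26.5 and 44.5 UMIs per 1000000 (CPM) in the libraries labelled Ctrl and cKO over all kept cells. A count at the 3′ end can come from a recombined as well as from an intact transcript, so Tbx1 gave no check of the labels, and directions are given between the libraries as labelled. Erythroid-like cells, 159 in all, were found in the library labelled cKO alone, and transcripts of an 8-gene erythroid list amounted to 132 to 166 CPM in every compared population of that library, against 0.406 to 21.4 CPM in the other.

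Cells were clustered without any of the 10 genes, the pathway list or Tbx1, and clusters were named from marker lists where the markers allowed it. The 16 populations with at least 50 cells in each library were compared, 11 of them named and 5 called by their leading genes. The named ones include MLP-like cells (multilineage progenitors of the pharyngeal mesoderm) and BrM-like cells (branchiomeric muscle progenitors). Others are pSHF-like cells (posterior second heart field) and CM-like cells (cardiomyocytes). SoM/aSHF-like cells were named from a joint list for somatic mesoderm and anterior second heart field. They carried 7 of its 9 markers, among them Msx1, Msx2 and Epha3 but not Nkx2-5. A cluster led by Nkx2-3 and Tlx1 carried 7 of 9 BrM and 9 of 12 MLP markers and stayed unnamed.

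Promoter sequences are shown for Lef1 and Axin2, since these were lower in the library labelled cKO in each of the 16 and 13 populations in which they were tested. Wnt6, tested in 1 population and lower there, is not shown. Each runs from 250 bases before to 50 bases after a RefSeq transcript start on GRCm38.p6, plus strand, 5′ to 3′. Capitals mark the TCF/LEF core CTTTG, or CAAAG on the other strand, and the T-box core AGGTGT, or ACACCT on the other strand.
Lef1, start 1, chr3:131110047-131110346: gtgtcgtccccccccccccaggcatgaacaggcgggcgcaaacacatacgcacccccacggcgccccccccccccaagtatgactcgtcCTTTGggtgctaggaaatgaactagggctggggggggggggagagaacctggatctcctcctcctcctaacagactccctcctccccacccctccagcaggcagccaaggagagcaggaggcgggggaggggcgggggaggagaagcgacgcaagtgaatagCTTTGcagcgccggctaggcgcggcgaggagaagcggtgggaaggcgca
Lef1, start 3, chr3:131112541-131112840: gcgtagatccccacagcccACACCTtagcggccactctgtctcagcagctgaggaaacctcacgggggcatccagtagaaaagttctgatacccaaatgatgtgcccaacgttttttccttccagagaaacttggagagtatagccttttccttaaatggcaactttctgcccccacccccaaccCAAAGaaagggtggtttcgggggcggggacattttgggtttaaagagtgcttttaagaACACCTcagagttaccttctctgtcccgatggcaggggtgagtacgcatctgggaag
Lef1, start 4, chr3:131156044-131156343: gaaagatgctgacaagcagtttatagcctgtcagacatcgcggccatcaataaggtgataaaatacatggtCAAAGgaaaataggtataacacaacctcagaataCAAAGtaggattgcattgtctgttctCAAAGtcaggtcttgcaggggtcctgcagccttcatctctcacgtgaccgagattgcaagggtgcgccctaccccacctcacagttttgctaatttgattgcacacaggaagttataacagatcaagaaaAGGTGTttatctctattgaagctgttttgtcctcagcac
Axin2, chr11:108920099-108920398: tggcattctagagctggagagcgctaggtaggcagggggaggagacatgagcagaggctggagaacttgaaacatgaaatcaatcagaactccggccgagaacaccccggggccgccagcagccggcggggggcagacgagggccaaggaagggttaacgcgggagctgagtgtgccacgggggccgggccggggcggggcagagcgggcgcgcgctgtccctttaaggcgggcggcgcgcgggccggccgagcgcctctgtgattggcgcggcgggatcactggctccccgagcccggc

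The second Lef1 window, chr3:131110073-131110372, overlaps the first. The TCF/LEF core occurred 2, 2, 1 and 3 times in the 4 Lef1 windows, at most 187 bases before a start, and the T-box core 0, 0, 2 and 1 times. Neither core was found in the Axin2 window. In comparison, 53.9% of all 32851 promoter windows of the same length held the TCF/LEF core and 13.7% the T-box core. A longer TCF/LEF motif, CTTTGAT, and a longer T-box motif, AGGTGTGA, were in 3.73% and 1.28% of all windows and in none of the windows of the 8 members that the table holds. Among these, Dkk1 was the one further member with a TCF/LEF core, 4 times. These matches describe letters in a window and are not measured binding sites.

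Within the populations compared, and above a mean of 5 CPM, Lef1 showed the widest difference of the 10 genes. This HMG-box factor, on chromosome 3 at 131110297 to 131224357 (GRCm38.p6), is the nuclear partner of β-catenin and a known target of the pathway. In the library labelled Ctrl its level was highest in BrM-like cells, at 177 CPM (167 to 187), and next in the Nkx2-3, Tlx1 cluster, at 158 CPM (147 to 169). SoM/aSHF-like cells followed at 111 CPM, somatic lateral plate-like cells at 69.2 CPM and paraxial mesoderm-like cells at 43.9 CPM. The first 5 places did not overlap in their intervals, apart from a narrow overlap between the first and second, and the other 11 populations lay below them at 15.8 to 33.4 CPM with intervals that overlapped between neighbours.

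In the library labelled cKO this order was different. BrM-like cells stood at 15.9 CPM (12.9 to 19.2) and the Nkx2-3, Tlx1 cluster at 16.8 CPM (13.4 to 20.8), within the range of 7.85 to 20.6 CPM of the other populations outside the SoM/aSHF-like and somatic lateral plate-like cells. SoM/aSHF-like cells, at 73.2 CPM, and somatic lateral plate-like cells, at 61.8 CPM, were then the highest. The BrM-like sum was 1202 UMIs over 312 cells in the library labelled Ctrl and 103 UMIs over 383 cells in the other. That is an 11.2-fold lower level (log2 ratio −3.48, −3.78 to −3.19).

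**Figure D1:**
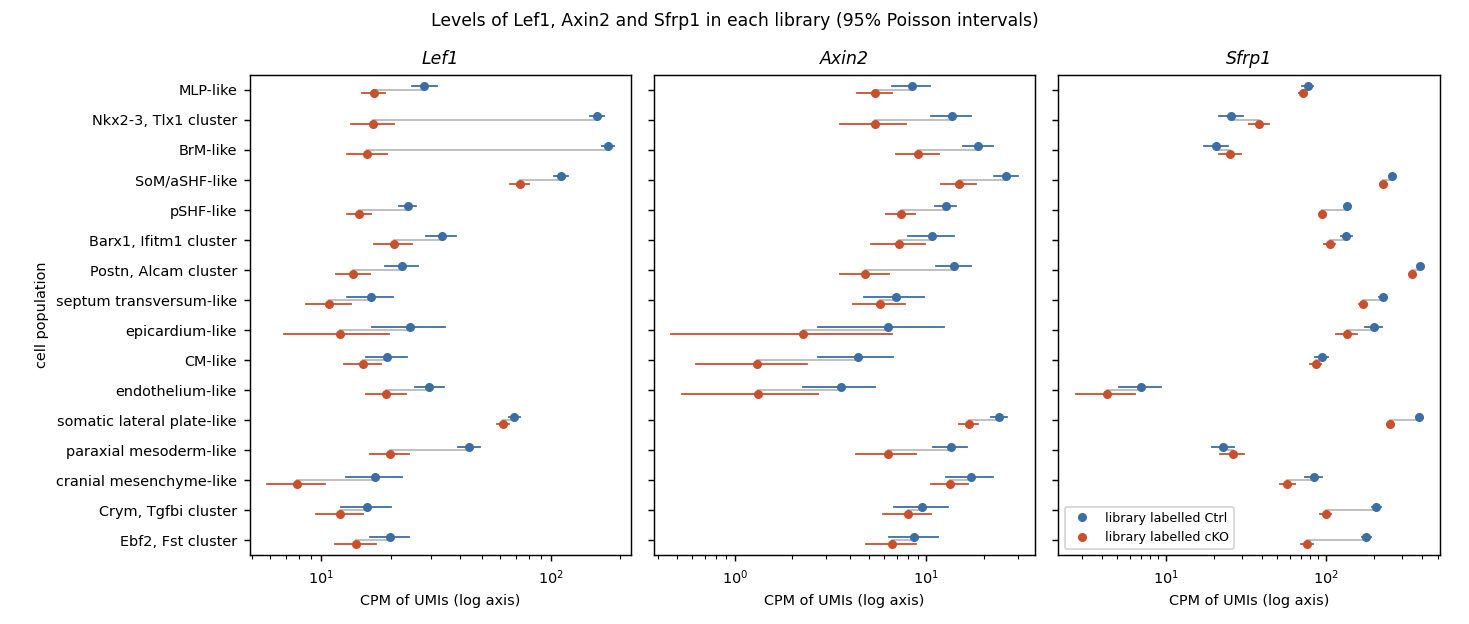
CPM of Lef1, Axin2 and Sfrp1 (log axis) in 16 populations of each library, as points with 95% Poisson intervals. Lef1 in BrM-like cells lies at 177 and 15.9 CPM in the libraries labelled Ctrl and cKO, while SoM/aSHF-like cells lie at 111 and 73.2 CPM.

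In the Nkx2-3, Tlx1 cluster, 827 and 84 UMIs of Lef1 were counted over 384 and 405 cells, a 9.41-fold lower level in the library labelled cKO (log2 ratio −3.23, −3.58 to −2.91). In this cluster the MLP markers summed to 1073 and 341 CPM and the BrM markers to 1004 and 657 CPM, and their part in the difference was not tested. The intervals of the Lef1 ratios of this cluster and of BrM-like cells overlapped each other and none of the 14 others, whose ratios lay between −1.14 and −0.16 with a lowest bound of −1.98. The BrM-like ratio held within cells of 1 embryo sex, at −3.50 among cells with Xist UMIs alone and −3.63 among cells with Y-linked UMIs alone, and it was −3.63 to −3.39 in the 9 other settings that kept a BrM-like population. The value of the Nkx2-3, Tlx1 cluster was −1.51 with presumed doublets kept and −1.19 with Wnt genes allowed as clustering features.

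Fewer cells had a Lef1 UMI as well. After thinning to 5000 UMIs per cell, 149 of 311 BrM-like cells (47.9%, 42.2 to 53.6) of the library labelled Ctrl and 26 of 381 (6.82%, 4.51 to 9.84) of the other were positive. Without thinning the shares were 80.4% and 22.2%, at median depths of 21346.5 and 16331 UMIs. Thinned shares in the Nkx2-3, Tlx1 cluster were 39.9% and 8.71%. Erythroid-like cells, which should lack the gene, had a thinned share of 0.629% at a median of 25427 UMIs in the library labelled cKO, so the low share in BrM-like cells lay above this background. No such cells were there to give the background of the library labelled Ctrl.

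**Figure D2:**
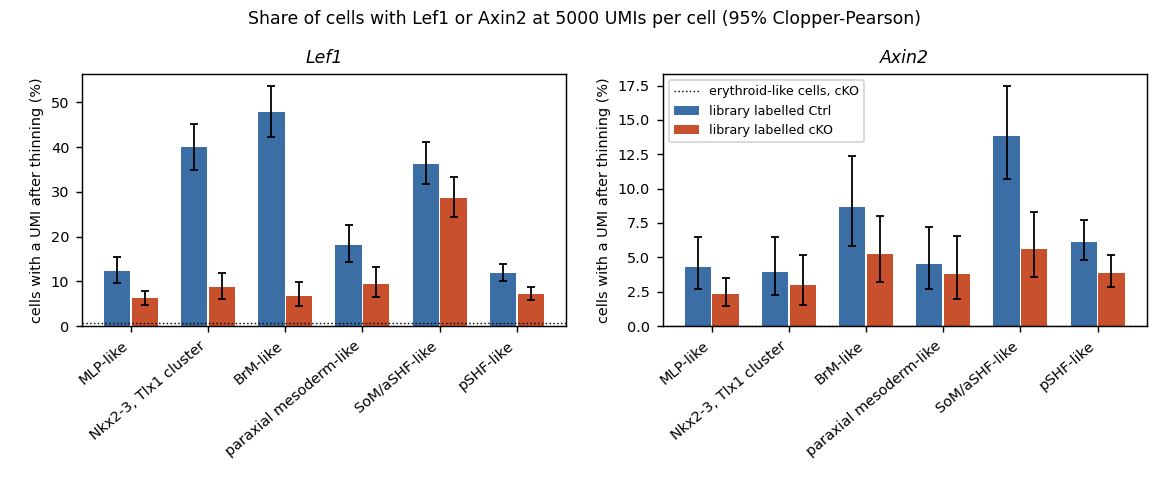
Percentage of cells with at least 1 UMI of Lef1 or Axin2 after thinning to 5000 UMIs per cell, as bars per population and library with 95% Clopper-Pearson intervals and a dotted line at the share in erythroid-like cells. For Lef1 in BrM-like cells the bars stand at 47.9% and 6.82%.

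Markers of the BrM-like population also differed between the libraries, in both directions. The 9 listed BrM markers were detected in both libraries, with a summed level of 1420 and 820 CPM in BrM-like cells of the libraries labelled Ctrl and cKO. Lhx2, a LIM-homeobox gene, stood at 357 and 9.24 CPM and the myogenic factor Myf5 at 52.6 and 1.69 CPM. Tcf21, a bHLH gene of head muscle progenitors, stood at 344 and 159 CPM, while Msc, another bHLH gene of these cells, was higher in the library labelled cKO, at 42.3 and 108 CPM. Among lists for other cells, a 5-gene neural crest list summed there to 30.8 and 19.7 CPM with 4 genes detected and Tfap2b at 0 in both, and a 4-gene macrophage list to 0.147 and 0.462 CPM. The 12 MLP markers summed to 740 and 290 CPM, a 10-gene cardiomyocyte list to 34.2 and 64.5 CPM, a 9-gene endothelium list to 45.2 and 65.6 CPM and the erythroid list to 2.94 and 138 CPM. The part of cell identity in the Lef1 difference was not tested. Without the barcodes that both libraries share, the BrM-like ratio was still −3.48.

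Outside these populations the Lef1 ratios were smaller and in 1 direction. Lef1 was lower in the library labelled cKO in 16 of 16 populations, with intervals below 0 in 14 and a median log2 ratio of −0.70, beside median ratios over all tested genes of −0.15 to −0.06 per population. Relative to that median it was lower in 16, with the whole interval below it in 12. The smallest difference was in somatic lateral plate-like cells, at 69.2 and 61.8 CPM (−0.16, −0.28 to −0.05). Paraxial mesoderm-like cells had 43.9 and 19.97 CPM (−1.14), and by embryo sex the ratio was −0.46 and −1.24. Cranial mesenchyme-like cells had 17.1 and 7.85 CPM (−1.12), and here the cells with Y-linked UMIs went the other way, at 0.65. This ratio was past 2-fold in 2 of 10 other settings. Lef1 was lower in cells of both sexes in 13 of 16 populations. Sums cannot tell fewer Lef1-positive cells from less Lef1 RNA per cell.

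Axin2, a scaffold of the destruction complex on chromosome 11 at 108917828 to 108950783, is widely used as a readout of the pathway. Its levels were low, from 3.59 to 26.1 CPM in the library labelled Ctrl, and highest in SoM/aSHF-like cells (26.1 CPM, 22.5 to 30.1) and somatic lateral plate-like cells (24.0 CPM, 21.9 to 26.3), which overlapped. In the library labelled cKO these populations had 14.8 and 16.6 CPM. Axin2 was tested in 13 populations, those with a mean of at least 5 CPM over both libraries, and was lower in the library labelled cKO in all 13, with intervals below 0, and below the population's median over all genes, in 8 and a median log2 ratio of −0.64.

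The difference was past 2-fold for Axin2 in 4 populations. The Postn, Alcam cluster had 13.9 and 4.82 CPM (log2 ratio −1.53, −2.07 to −1.01), the Nkx2-3, Tlx1 cluster 13.6 and 5.40 CPM (−1.33), paraxial mesoderm-like cells 13.4 and 6.28 CPM (−1.10) and BrM-like cells 18.7 and 9.08 CPM (−1.04). These rest on few UMIs, 127 and 59 in BrM-like cells. In the Nkx2-3, Tlx1 cluster the Axin2 ratio was −0.39 with presumed doublets kept and −0.56 with Wnt genes as clustering features, and in paraxial mesoderm-like cells −0.41 with all deposited cells and −0.44 at resolution 0.6. Cells of both sexes had lower Axin2 in 12 of the 13 populations, the Crym, Tgfbi cluster being the exception, though the paraxial value shrank to −0.08 among cells with Xist UMIs alone. Both Lef1 and Axin2 UMIs were found in 16 of 311 thinned BrM-like cells (5.14%, 2.97 to 8.22) and in 2 of 381 (0.525%, 0.0636 to 1.88) of the library labelled cKO. The products of the single shares would give 4.16% and 0.358%, both within the intervals of the joint shares.

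Wnt2, a ligand of the posterior heart field and the developing lung, on chromosome 6 at 17985474 to 18032772, was present from the heart to the lateral plate. In the libraries labelled Ctrl and cKO it had 252 and 251 CPM in the Postn, Alcam cluster, 187 and 134 CPM in epicardium-like, 157 and 186 CPM in CM-like, 142 and 157 CPM in pSHF-like, 134 and 114 CPM in SoM/aSHF-like and 121 and 124 CPM in somatic lateral plate-like cells. It was nearly absent from BrM-like cells, at 0.294 and 0.77 CPM. The level was uneven within classes. Of the 3 pSHF-like clusters, the one led by Igfbp7 and Dock9 had 360 and 358 CPM, against 49.6 and 71.3 CPM in the Cxcl13, Cldn11 cluster. Of the CM-like clusters, the one led by Myh6, a cardiac myosin heavy chain gene, had 273 and 293 CPM and the one led by Myl2, a ventricular myosin light chain gene, 41.8 and 52.8 CPM. Over all kept cells Wnt2 stood at 78.6 and 76.8 CPM (log2 ratio −0.03), and none of its 10 tested populations differed 2-fold.

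**Figure D3:**
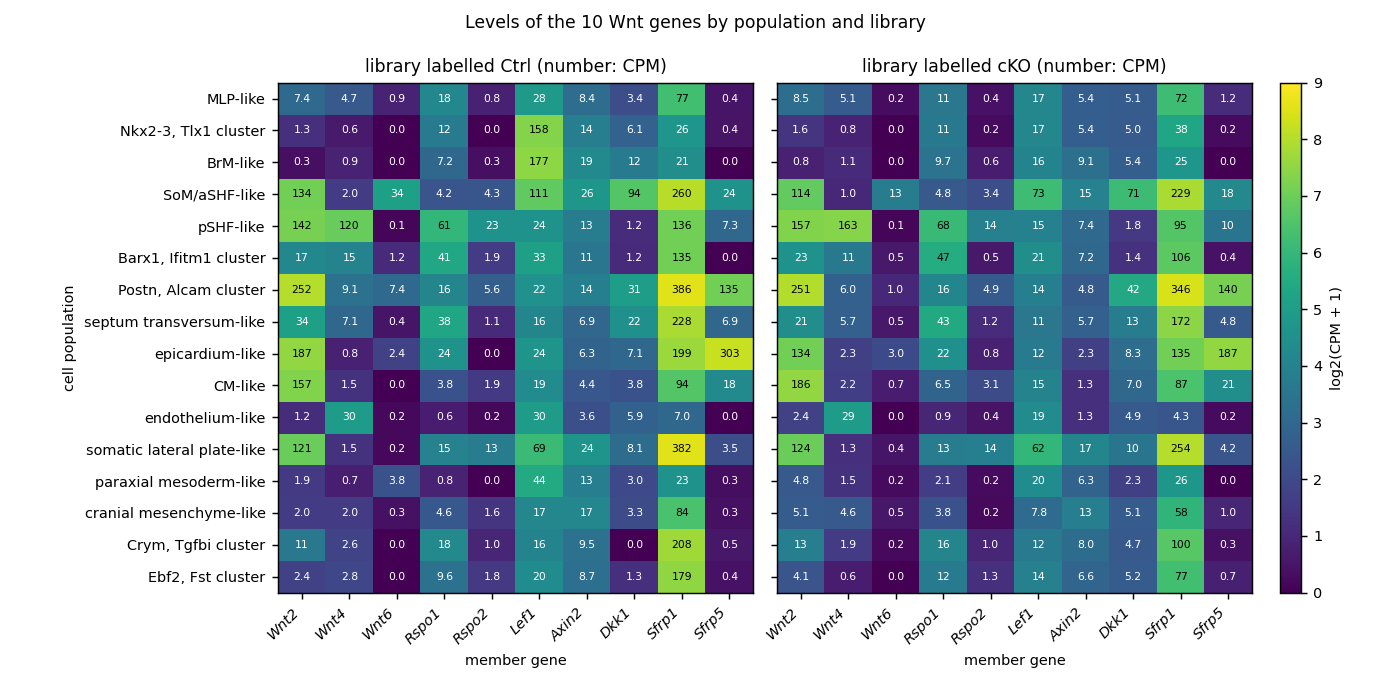
Levels of the 10 genes in 16 populations for each library, with colour as log2(CPM + 1) and the CPM written in each cell. Wnt2 reaches 252 and 251 CPM in the Postn, Alcam cluster and Lef1 177 and 15.9 CPM in BrM-like cells.

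Wnt4, a ligand known from the kidney and gonad, on chromosome 4 at 137277635 to 137299501, was mostly a transcript of pSHF-like cells, at 120 CPM (115 to 125) and 163 CPM (157 to 169) in the libraries labelled Ctrl and cKO. This log2 ratio of 0.45 (0.37 to 0.52) was above 0 in cells of both sexes. The Nkx6-1, Cxcl13 cluster had 195 and 294 CPM and the Cxcl13, Cldn11 cluster 140 and 191 CPM. The remaining pSHF-like cluster, led by Igfbp7 and Dock9, had 17.1 and 17.3 CPM (0.02, −0.42 to 0.45). Endothelium-like cells were the second site, at 29.7 and 29.4 CPM. There the Klf2, Gngt2 cluster had 77.7 and 80.7 CPM, whereas the Cldn5, Emcn cluster had no Wnt4 UMI in the library labelled Ctrl, where 3 counts would be 0.758 CPM, and 2 UMIs in the other.

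Wnt6, a ligand of surface epithelia and somites, on chromosome 1 at 74754342 to 74785322, was tested in SoM/aSHF-like cells alone. It stood there at 33.8 CPM (29.7 to 38.3) and 13.0 CPM (10.3 to 16.2) in the libraries labelled Ctrl and cKO, or 242 and 79 UMIs. The log2 ratio was −1.38 (−1.77 to −1.01), with −0.81 and −2.03 in cells with Xist and with Y-linked UMIs alone. In the other 15 populations the mean of both libraries was under 5 CPM. Over all kept cells Wnt6 had 344 and 124 UMIs, a log2 ratio of −1.69, beside −1.16 for Lef1. In cells with Xist and with Y-linked UMIs alone it was −1.05 and −2.41 for Wnt6 and −1.12 and −1.23 for Lef1. SoM/aSHF-like cells were 6.58% and 4.62% of the kept cells, and the part of this share in the Wnt6 sum was not tested. Below the floor, the Postn, Alcam cluster had 48 and 10 UMIs of Wnt6.

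Among the R-spondins, Rspo1, on chromosome 4 at 124986401 to 125009102, was highest in pSHF-like cells at 60.9 and 67.5 CPM in the libraries labelled Ctrl and cKO. The Barx1, Ifitm1 cluster had 41.3 and 46.5 CPM and septum transversum mesenchyme-like cells 38.3 and 43.1 CPM, and these neighbours overlapped. MLP-like cells had less Rspo1 in the library labelled cKO, 17.5 against 11.0 CPM (log2 ratio −0.67, −0.98 to −0.36). Rspo2, on chromosome 15 at 43020788 to 43171594, passed the floor in 3 populations. In pSHF-like cells it had 23.4 and 14.3 CPM (−0.71, −0.93 to −0.49), most of it in the Igfbp7, Dock9 cluster, at 61.6 and 34.6 CPM, where Wnt2 was also highest. In somatic lateral plate-like cells it had 12.9 and 13.8 CPM. Both R-spondins were found in 0.963% (0.482 to 1.72) and 1.55% (0.918 to 2.43) of thinned pSHF-like cells. The products of the single shares were 2.22%, above that interval, and 1.61%, within it. In pSHF-like cells the cardiomyocyte list summed to 216 and 507 CPM, and the part of cell identity in the Rspo2 and Wnt4 differences was not tested.

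Sfrp1, a secreted Frizzled-related protein on chromosome 8 at 23411383 to 23449632, was present in most of the mesoderm. In the library labelled Ctrl its levels were highest in the Postn, Alcam cluster (386 CPM, 371 to 402) and somatic lateral plate-like cells (382 CPM, 373 to 390), which overlapped. SoM/aSHF-like cells followed (260 CPM). BrM-like cells, paraxial mesoderm-like cells, the Nkx2-3, Tlx1 cluster and endothelium-like cells were the lowest, at 20.8, 22.9, 25.6 and 7.03 CPM. Thus the BrM-like cells and the Nkx2-3, Tlx1 cluster, first in the order for Lef1 in this library, were among the last 4 for Sfrp1. SoM/aSHF-like and somatic lateral plate-like cells, next in the order for Lef1, were among the highest for Sfrp1.

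Between the libraries Sfrp1 was lower in the one labelled cKO in 13 of 16 populations, with intervals below 0 in 10, and below the median over all genes in 12, with the interval below it in 8. It was past 2-fold in the Ebf2, Fst cluster, at 179 and 76.6 CPM (log2 ratio −1.23, −1.38 to −1.07), and in the Crym, Tgfbi cluster, at 208 and 99.96 CPM (−1.05, −1.21 to −0.90). By embryo sex these ratios were −0.68 and −1.87 in the Ebf2, Fst cluster and −0.84 and −1.27 in the Crym, Tgfbi cluster, and at resolution 0.6 they were −0.90 and −0.66. Over 10 other settings the ratio of the Crym, Tgfbi cluster lay between −1.98 and −0.66. The Ebf2, Fst cluster had no counterpart in 4 of 10 other settings. Somatic lateral plate-like cells had 382 and 254 CPM (−0.59). The direction was opposite in the Nkx2-3, Tlx1 cluster, at 25.6 and 38.4 CPM (0.58, 0.26 to 0.91), and the ratios of BrM-like and paraxial mesoderm-like cells were 0.28 and 0.20 with intervals that span 0. Within the CM-like cells the clusters differed in direction, with 163 and 120 CPM in the Myh6 cluster and 25.9 and 44.9 CPM in the Myl2 cluster.

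Sfrp5, on chromosome 19 at 42197971 to 42202252, belongs to the same protein family and was far more restricted. Epicardium-like cells had 303 CPM (274 to 335) and 187 CPM (165 to 212) in the libraries labelled Ctrl and cKO, a log2 ratio of −0.70, which was −0.05 and −1.36 by embryo sex and rests on 60 and 84 cells. The Postn, Alcam cluster had 135 and 140 CPM. SoM/aSHF-like cells had 23.6 and 17.9 CPM, CM-like cells 18.5 and 20.7 CPM and pSHF-like cells 7.26 and 10.4 CPM. No other population but the septum transversum mesenchyme-like cells, at 6.93 and 4.79 CPM, passed the floor. Wnt2 and Sfrp5 were read in the same cells in 29.6% and 27.3% of thinned cells of the Postn, Alcam cluster, near the products of the single shares of 27.7% and 25.3%. In epicardium-like cells both were found in 20 of 60 (33.3%, 21.7 to 46.7) and 19 of 84 cells (22.6%, 14.2 to 33.0), and these intervals overlap those of the cluster. Over all kept cells, joint shares of 3.40% and 3.60% stood beside products of 1.04% and 1.16%.

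Dkk1, on chromosome 19 at 30545876 to 30549496, was highest in SoM/aSHF-like cells, at 94.4 CPM (87.4 to 102) and 70.5 CPM (64.0 to 77.5) in the libraries labelled Ctrl and cKO (log2 ratio −0.42, −0.60 to −0.24). The Postn, Alcam cluster had 31.2 and 42.0 CPM, in the opposite direction (0.43, 0.18 to 0.68). Septum transversum mesenchyme-like cells had 22.1 and 12.7 CPM (−0.80). In BrM-like cells 82 and 35 UMIs gave 12.1 and 5.39 CPM (−1.16, −1.78 to −0.58), but this difference was uneven by sex, at −1.47 and −0.11. The SoM/aSHF-like cells thus held the highest level of Dkk1 and of Wnt6 in both libraries and, in the library labelled cKO, of Lef1.

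**Figure D4:**
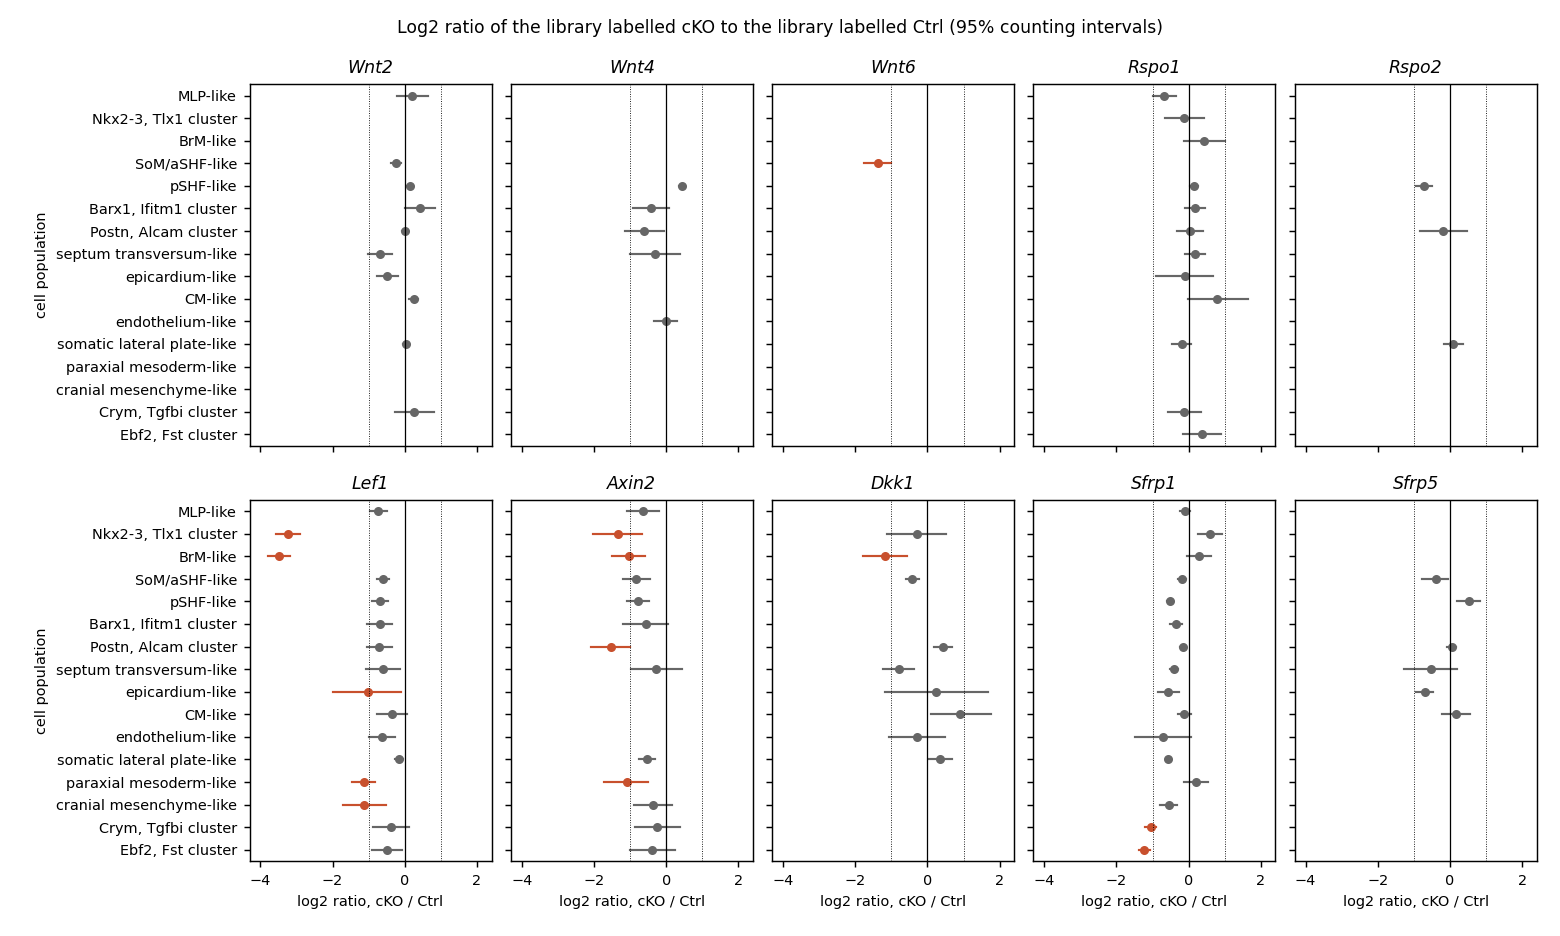
Log2 ratio of the library labelled cKO to the library labelled Ctrl for each gene and population with a mean of at least 5 CPM, as points with 95% counting intervals, dotted lines at 2-fold and orange for ratios past 2-fold. Lef1 in BrM-like cells (−3.48) and in the Nkx2-3, Tlx1 cluster (−3.23) lie far to the left, and no point lies past 2-fold on the right.

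Counted over the 10 genes, 91 pairs of a gene and a population passed the floor. In 13 of them (14.3%) the level was at least 2-fold lower in the library labelled cKO, where 2.77% of all such pairs over all genes were. None was at least 2-fold higher, where 0.903% of all pairs were. All pairs share both libraries and many share a gene, so they are not independent. The 10 genes were chosen with earlier results of these data known, and the part of that choice in these counts was not tested. The 3 of 5 tested genes that were lower in BrM-like cells were Lef1, Axin2 and Dkk1, where 4.34% of all genes were. Lef1 and Axin2 were the 2 of 5 in the Nkx2-3, Tlx1 cluster, with 6.85% of all genes, and the 2 of 3 in paraxial mesoderm-like cells, with 2.30%.

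Each of 6 further populations had 1 gene past 2-fold. It was Axin2 in the Postn, Alcam cluster (1.51% of all genes lower), Wnt6 in SoM/aSHF-like cells (1.78%), Sfrp1 in the Crym, Tgfbi cluster (2.85%) and in the Ebf2, Fst cluster (2.97%), and Lef1 in cranial mesenchyme-like (3.52%) and epicardium-like cells (4.25%). With 3 to 9 genes tested in each, 1 gene is a coarse count. The epicardium-like value, 24.4 and 12.1 CPM, rests on 31 and 16 UMIs. In other settings Lef1 stayed past 2-fold in 2 of 10 for cranial mesenchyme-like cells and in 4 of 9 for epicardium-like cells (−1.23 to −0.45). The other 7 populations had none. The number of pairs lower was 7 of 78 at a clustering resolution of 0.6, where 3 of the 16 populations had no counterpart. It was 26 of 156 without the floor and 31 of 91 at a fold of 1.5. In these settings 2, 21 and 2 pairs were higher, and the shares over all genes were not computed.

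Of the 73 further pathway genes, 49 passed the floor in at least 1 population, giving 550 pairs. In 30 (5.45%) the level was at least 2-fold lower in the library labelled cKO and in 7 (1.27%) higher, beside 2.77% and 0.903% over all genes. In cells with Xist and with Y-linked UMIs alone, 48 of 555 and 55 of 552 pairs were lower and 13 and 10 higher. Shares over all genes were not computed for these smaller sets of cells. Of the 30 pairs lower over all kept cells of a population, 15 were of Frizzled receptors: 9 Fzd7, 3 Fzd4, 2 Fzd1 and 1 Fzd10. Fzd2 and Fzd3, tested in 16 populations each, and Fzd8, tested in 8, had none. Fzd7 was lower in 16 of 16 populations, with log2 ratios from −1.42 to −0.59, and past 2-fold in 9. In MLP-like cells it had 51.9 and 22.6 CPM (−1.20) and in SoM/aSHF-like cells 80.0 and 34.3 CPM (−1.22). Fzd4 was lower in 15 of 16, and past 2-fold in MLP-like cells, cranial mesenchyme-like cells and the Ebf2, Fst cluster (−1.04, −1.04 and −1.18).

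Of the 36 pathway genes tested in BrM-like cells, 3 were at least 2-fold lower and 2 higher, beside 4.34% and 1.71% of all genes. In the Nkx2-3, Tlx1 cluster 3 of 36 were lower and 1 higher, beside 6.85% and 1.27%. Median log2 ratios of these pathway genes were −0.11 and −0.37, beside −0.11 and −0.12 over all genes. In these populations, where Lef1 differed most, its relative Tcf7, which binds the same motif, also differed. Tcf7 had 52.9 and 17.1 CPM in BrM-like cells (−1.63) and 35.5 and 12.4 CPM in the Nkx2-3, Tlx1 cluster (−1.52). Tnfrsf19, a known target, had 29.9 and 10.3 CPM in BrM-like cells (−1.53). Not all targets followed: Myc, a cell growth regulator with many inputs, was higher, with 16.2 and 38.3 CPM in BrM-like cells (1.24) and 1.05 in the Nkx2-3, Tlx1 cluster. The target Bambi had 53.3 and 80.2 CPM in BrM-like cells (0.59). Sfrp2, a secreted inhibitor, was higher too in BrM-like cells, at 16.6 and 34.5 CPM (1.05). Notum, a secreted enzyme that inactivates Wnt ligands and is induced by the pathway, lay below the level set for naming and was picked after its values were seen. It had 66 and 3 UMIs in BrM-like cells and 50 and 4 UMIs in the Nkx2-3, Tlx1 cluster.

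Elsewhere, single inhibitors stood out. Frzb, a Frizzled-related inhibitor, had 6.24 and 35.0 CPM in MLP-like cells (log2 ratio 2.49, 2.10 to 2.90) and 2.23 and 8.53 CPM in SoM/aSHF-like cells (1.93). The 12 MLP markers summed to 962 and 648 CPM in MLP-like cells, and the part of cell identity in the Frzb difference was not tested. Dkk2 had 69.1 and 9.03 CPM in the Postn, Alcam cluster (−2.94, −3.28 to −2.61). Bambi, a pseudoreceptor and known target, had 21.6 and 76.3 CPM in the Ebf2, Fst cluster (1.82). In paraxial mesoderm-like cells the ligand Wnt16 had 32.9 and 10.5 CPM (−1.65) and the R-spondin receptor Lgr4 40.5 and 19.8 CPM (−1.03). Markers of this population differed in both directions, with Pax3 at 150 and 107, Dmrt2 at 40.6 and 13.1 and Foxc2 at 56.1 and 71.1 CPM. The cardiomyocyte list summed there to 25.6 and 68.1 CPM. The part of cell identity in these and in the paraxial Lef1 and Axin2 differences was not tested.

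**Figure D5:**
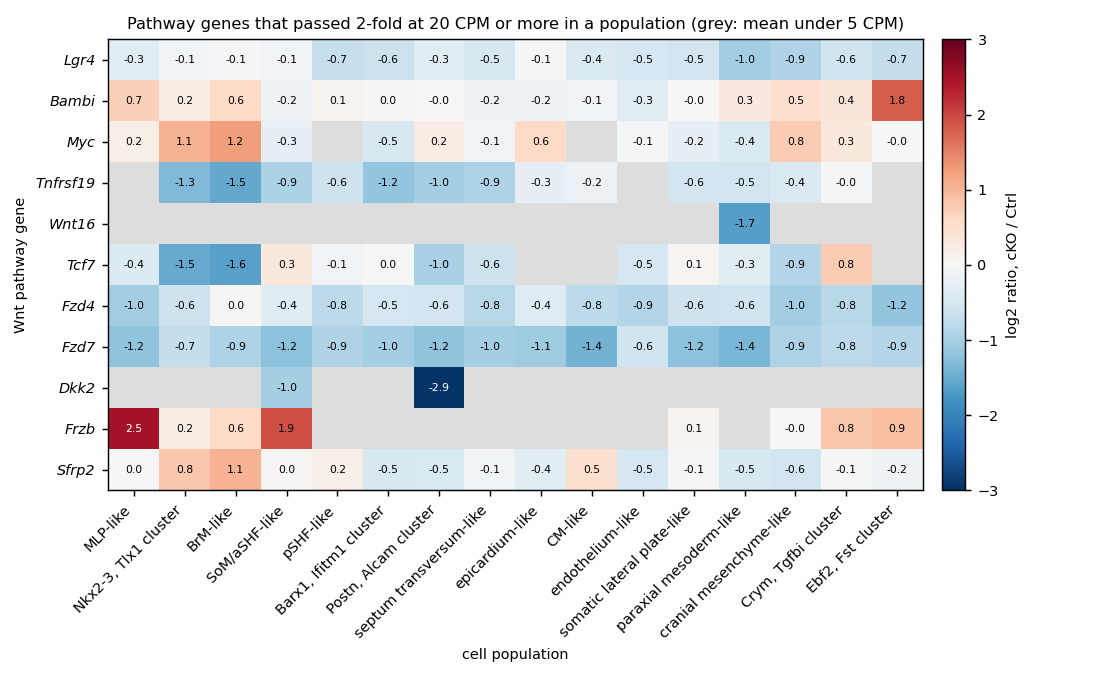
Log2 ratio of the library labelled cKO to the library labelled Ctrl for the 11 further pathway genes that passed 2-fold at 20 CPM or more in a population, by population, with grey where the mean was under 5 CPM. Fzd7 is negative in all 16 columns, Tcf7 reaches −1.63 in BrM-like cells and Frzb 2.49 in MLP-like cells.

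The genes most like each member were found by Pearson's r of log2(CPM + 5) over 43 sums, 1 per cluster and library with at least 50 cells. The points share libraries and cell lineages, and r is given as a description. Lef1 was most like Tcf7 (0.83), followed by Rps6ka3 (0.79) and Cdon (0.76), and its r with Axin2 was 0.66. Axin2 was most like Gli2 (0.86), a mediator of Hedgehog signalling, Gpc1 (0.82) and Trps1 (0.82). Wnt2 was most like St7 (0.90), which ends 42451 bases from it on chromosome 6, and Tbx5 (0.89), a T-box factor of the posterior heart field. Rspo2 was most like St7 (0.78) and Wnt2 (0.70).

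Wnt4 was most like Barx2 (0.79) and Nkx6-1 (0.79), and Rspo1 most like Osr1 (0.82), a pSHF marker. Wnt6 was most like Prss35 (0.81) and Dkk2 (0.81), and had an r of 0.71 with Dkk1, whose closest genes were Mab21l2 (0.76) and Hand1 (0.75), both genes of lateral plate mesoderm. Sfrp1 was most like Cntfr (0.89) and Ptpn13 (0.89). Sfrp5 was most like Dsc2 (0.93), and its r with Wnt2 was 0.72.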

How the data were processed

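The deposited values are raw UMI counts per gene and cell barcode, 1 matrix per library. Per the labels and the submitters' processing notes, the authors aligned reads to mm10 with Cell Ranger 3.1.0, and the matrices hold cell-called barcodes with no normalization. Cells with at least 1000 genes and at most 10% mitochondrial UMIs were kept (411 and 508 failed in the libraries labelled Ctrl and cKO). Doublets were scored with Scrublet in scanpy 1.11.5. Its automatic threshold called 0% and 7.42% of cells, so the top-scoring cells were removed at 0.8% per 1000 cells, 416 and 804. Cells were clustered in Seurat 5.3.0 (R 4.3.3) with reciprocal principal component integration, 2000 variable genes, 30 dimensions and resolution 1. A first pass left out 227 genes (the members, the Wnt pathway list, Tbx1, and mitochondrial, ribosomal, haemoglobin and sex-linked genes), and a second also 915 genes that differed between the libraries, giving 24 clusters. A cluster was named from a marker list with at least 3 markers, 50% of the list, a 5-point lead over the next list and no more markers of another list among its 10 leading genes. These thresholds were set after the clusters were seen.

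UMIs were summed per library and population and divided by the population's total (CPM), with exact Poisson intervals. Ratios carry exact conditional intervals and shares Clopper-Pearson intervals, all at 95%. The libraries labelled Ctrl and cKO had population totals of 1269902 to 20653312 and of 1325040 to 18402645 UMIs, where 3 counts, the limit a count of 0 allows, came to 0.145 to 2.36 and 0.163 to 2.26 CPM. Genes were tested for a 2-fold ratio at a mean of at least 5 CPM, a fixed size with no p-value. 3′ UMIs are not compared between genes as molar levels. All 10 members were named, and of the pathway list those past 2-fold at a mean of at least 20 CPM in a population, at most 6 per population. Likeness used the 3 highest r among 8154 genes. Alternatives covered filters, doublets, integration, resolution, clustering features, embryo sex, scaling, floor, fold and thinning. The calculations were tested on simulated counts. The members and lists were chosen with earlier results of these data known. Coordinates and promoters came from RefSeq GRCm38.p6 tables, which held coordinates for all 10 members and promoters for 8, with none for Rspo2 and Sfrp1. Of the marker genes and of the genes named by likeness, 1 each is not reported here.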

Additional observations from a re-analysis of the deposited data

Results flagged for a closer look

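For 6 of the genes, 1 population had a ratio between the libraries labelled cKO and Ctrl above 0 and another a ratio below 0, each with a counting interval that did not span 0. With 1 library per group these differences were not tested. Wnt2 had a log2 ratio of 0.41 in the Barx1, Ifitm1 cluster and −0.69 in septum transversum mesenchyme-like cells. Wnt4 had 0.45 in pSHF-like cells and −0.60 in the Postn, Alcam cluster, where it was 0.14 and −1.43 in cells with Xist and with Y-linked UMIs alone and 0.45 with doublets kept. Rspo1 had 0.15 in pSHF-like and −0.67 in MLP-like cells. Dkk1 had 0.90 in CM-like cells (3.78 and 7.04 CPM) and −1.16 in BrM-like cells. Sfrp1 had 0.58 in the Nkx2-3, Tlx1 cluster and −1.23 in the Ebf2, Fst cluster. Sfrp5 had 0.51 in pSHF-like and −0.70 in epicardium-like cells.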

How the results depend on the processing

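Lef1 in BrM-like cells kept its direction and stayed within its counting interval in all 9 of the settings tried that gave a value, the added one apart (−3.63 to −3.39). Without integration no BrM-like population held enough cells of both libraries. In the Nkx2-3, Tlx1 cluster the log2 ratio of Lef1 was −1.51 with doublets kept, −1.19 with Wnt genes as clustering features and −3.72 in cells with Y-linked UMIs alone, and the cluster had no counterpart with all deposited cells, after the first pass, without integration or at resolution 0.6. Leaving out shared barcodes, chosen after seeing the data, gave −3.48 and −3.24. Lef1 in cranial mesenchyme-like cells turned to 0.65 among Y-linked cells alone. Of the 13 gene and population pairs past 2-fold, 13 kept their sign in cells with Xist UMIs alone, and 7 stayed past 2-fold. The Ebf2, Fst cluster had no counterpart with all deposited cells, with doublets kept, after the first pass or with Wnt genes as features. The cause of these changes was not tested.

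The 13 of 91 pairs lower became 7 of 78 at resolution 0.6, where MLP-like cells, the Nkx2-3, Tlx1 cluster and epicardium-like cells had no counterpart, 26 without a floor and 31 at a fold of 1.5. The 0 pairs higher became 3 with all deposited cells, 3 with doublets kept, 1 without integration, 2 at resolution 0.6, 1 with Wnt genes as features, 4 with Xist UMIs alone, 1 with Y-linked UMIs alone, 21 without a floor and 2 at a fold of 1.5. The 30 pathway pairs lower became 48 and 55 in cells of the Xist and Y-linked kinds, which are fewer, and 18 at a floor of 20 CPM. The 7 higher became 13 with Xist UMIs alone. Shares over all genes were computed for the main setting alone, so the counts under other settings have no such share beside them. The share of BrM-like cells with Lef1 was 80.4% and 22.2% without thinning and 61.9% and 3.92% at 2 or more UMIs. No paired analysis was possible because each group is 1 library. The floor of 5 CPM was a choice.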
